A study of Homo sapiens with 6 samples.

Results

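The insulin-like growth factor and insulin system was followed through 7 genes in 2 human leukemia cell lines. They were the receptor genes IGF1R, INSR and IGF2R, the ligand genes IGF1 and IGF2, and the substrate genes IRS1 and IRS2. Their members on the array were all probe sets, each covering part of a gene, whose annotation named a single one of these symbols. This gave 112 of the 352859 probe sets of the table, namely 22 for IGF1R, 23 for INSR, 45 for IGF2R, 11 for IGF1, 5 for IGF2, 4 for IRS1 and 2 for IRS2. Averaged per gene on the log2 scale, they were 7 of the 22320 genes with a single symbol.

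HEL came from an erythroleukemia and SET2 from a leukemia that arose out of essential thrombocythemia, and in both the JAK2 kinase is known to be mutated and active. The labels call both acute myeloid leukemia lines. In each line 1 culture received the miR-125a sponge, 1 the shRNA against IGF1R and 1 the empty pLKO vector as control. All 6 cultures were transduced by lentivirus and kept in puromycin for 96 h, so that selection and viral entry were shared by every group, controls included. RNA of each culture went to 1 GeneChip Human Gene 2.0 ST array. A sponge is a transcript with repeated binding sites that is meant to hold a microRNA away from its targets. The title and the treatment field of those arrays name a sponge, while their source field speaks of cells transduced with miR125a. Each combination of line and construct was measured once.

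The type 1 IGF receptor and the insulin receptor are related tyrosine kinases that bind IGF1, IGF2 and insulin and can pair with each other in hybrid receptors. Bound receptors phosphorylate the docking proteins IRS1 and IRS2, which carry the signal to PI3 kinase and AKT and, with other adaptors, to RAS and ERK. The IGF2 receptor, also called the mannose 6-phosphate receptor, takes IGF2 to the lysosome and has no kinase. In blood cells this system supports survival and growth beside the cytokine receptors that act through JAK2.

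The 2 mature microRNAs of the MIR125A gene, the target of the sponge, are shown in RefSeq's sequence for GRCh38.p14, with the seed, bases 2 to 8, in capitals. Which arm the sponge binds is not given in the sources used here.

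hsa-miR-125a-5p (chr19:51693268-51693291, plus strand): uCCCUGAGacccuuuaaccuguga

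hsa-miR-125a-3p (chr19:51693306-51693327, plus strand): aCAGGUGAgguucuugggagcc

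Levels are log2 values as the authors deposited them. Array medians lay between 5.69 and 5.75, and the median gene stood at 5.55. Of the blood cell markers, the leukocyte gene PTPRC, the erythroid and megakaryocyte factor GATA1 and the platelet integrin gene ITGA2B ran from 9.12 to 10.83 over the 6 arrays. Others were low: the embryonic globin gene HBZ averaged 5.34, under the median gene, and the platelet glycoprotein gene GP9 ran from 4.98 to 5.35 in SET2 arrays. In the HEL array with the IGF1R shRNA, all 10 measured blood markers stood below the HEL control. PTPRC stood at 9.12 and the stem cell factor receptor gene KIT at 8.53, against 10.13 and 9.70 in the HEL control. HBZ stood at 3.89 against 5.65 and GP9 at 7.84 against 8.73. In SET2, KIT, ITGA2B and KLF1 had higher values with the IGF1R shRNA than in the control. For the IGF1R shRNA against control 0 of the 10 passed. Summed over 10 of 12 listed blood markers, log2 levels ran from 83.4 to 90.7 in HEL arrays and from 88.6 to 90.2 in SET2 arrays. The lowest of these sums was that of the HEL array with the IGF1R shRNA. Summed over 9 of 10 listed markers of other cell types they ran from 41.7 to 42.1 in HEL arrays and from 45.5 to 45.7 in SET2 arrays. Of these 9 markers CDH1, the E-cadherin gene that erythroid progenitors also express, and EPCAM, an epithelial gene, passed as lower in HEL, with log2 differences of -3.40 and -0.57 (adjusted p = 1.48e-05 and 0.0319 by limma). Of the blood markers GP9 passed as higher in HEL (3.21), and the fetal globin gene HBG1 (-2.25), KLF1 (-0.98), SPN (-0.87) and HBZ (-0.73) as lower. The part of these markers in the line differences was not tested. None of the 19 markers was at 0. In such bulk RNA, fewer cells with a transcript and less transcript per cell cannot be told apart.

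The lines were set against each other over all treatments to see where the IGF and insulin genes differ between them. INSR was 4.72-fold lower in HEL than in SET2, IRS2 was 1.71-fold lower and IGF2R was 1.63-fold lower. IGF1R, whose protein is the partner of the insulin receptor in hybrids, had a value 1.26-fold higher in HEL and missed the threshold. IGF1, IGF2 and IRS1 did not pass. In all, 3 of the 7 genes passed as lower in HEL, where 13.0% of all genes did, and 0 of the 7 passed as higher, where 11.6% of all genes did. In either direction 24.5% of all genes passed. At an unadjusted p under 0.05 there were 4 of the 7, where 34.8% of all genes were. INSR alone was at least 2-fold lower, as were 4.45% of all genes, and 0 of the 7 were at least 2-fold higher, as were 3.71%. The test was limma's moderated test with the treatment as a term, on all 22320 genes, with p-values adjusted by Benjamini-Hochberg and a threshold of 0.05. The p-values measure only the spread between these arrays.

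**Figure D1:**
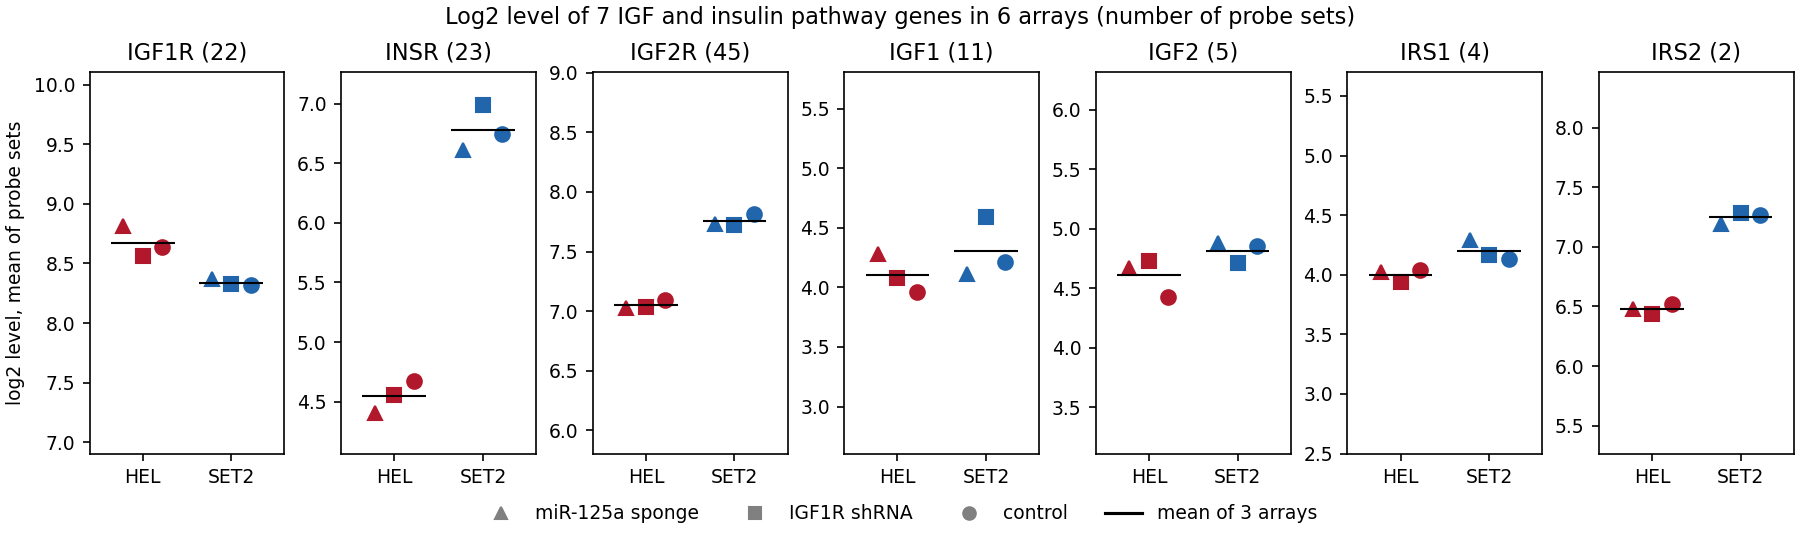
Log2 level (y axis, mean of the gene's probe sets) of each of the 7 genes in the 6 arrays, with HEL left of SET2, symbols for the constructs and lines for the mean of 3 arrays; every panel spans the same log2 range. INSR, IGF2R and IRS2 lie lower in every HEL array than in every SET2 array, with HEL means of 4.54, 7.05 and 6.48 against SET2 means of 6.78, 7.76 and 7.25.

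INSR encodes the insulin receptor. Its log2 levels in HEL were 4.41 with the sponge, 4.55 with the IGF1R shRNA and 4.67 in the control. In SET2 they were 6.61 with the sponge, 6.99 with the IGF1R shRNA and 6.75 in the control. The lines did not overlap, and the gap between them was far wider than the spread among constructs within a line (SD 0.13 in HEL and 0.19 in SET2, n = 3 each). The log2 difference was -2.24 (SE 0.13, 95% confidence interval -2.54 to -1.94, adjusted p = 7.15e-05 by limma), lower in HEL under 3 of 3 constructs. Only 0.797% of all genes had a log2 difference below that of INSR. The HEL mean of 4.54 lay under the median gene at 5.55, and the SET2 mean of 6.78 above it. With no call of presence, the 4.72-fold is a ratio of array values. How far INSR is transcribed in HEL cannot be read from it. Leaving out each array in turn, the HEL array with low PTPRC included, moved the value between -2.32 and -2.14, the same for either array of a construct.

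The lower level in HEL was seen in most probe sets of the gene. Of the 23 INSR probe sets, 21 were lower in HEL under each construct, and 20 had every HEL array below every SET2 array, against 14.2% of all probe sets. In a fit of all 352859 probe sets, 17 of the 23 passed as lower in HEL, against 2.27% of all (4.37% in either direction, 2.11% higher), with adjusted p from 0.00615 to 0.0497. These calls rest on all 6 arrays. Without the IGF1R shRNA array of either line 0 INSR probe sets passed, as 0 of the whole table did, without either control 0 passed, and without either sponge array 1 passed. Of the 23, 18 were at least 2-fold lower, against 7.01% of all probe sets, and 1 at least 2-fold higher, against 6.85%. The difference was not uniform. Probe set 16867926 stood at 2.84, 2.46 and 2.77 in HEL with the sponge, the IGF1R shRNA and the control, against 6.64, 7.20 and 6.85 in SET2, a log2 difference of -4.21. Probe set 16867925, the one with the highest mean, stood at 7.03, 7.21 and 7.09 in HEL, against 7.60, 8.21 and 7.87 in SET2, a log2 difference of -0.78. With this probe set alone standing for the gene, INSR still passed (adjusted p = 0.0439). Probe set 16867928 differed by 0.073, with levels of 7.32, 7.28 and 7.53 in HEL, against 7.40, 7.35 and 7.16 in SET2. Probe set 16867939 went the other way, at 5.40, 4.26 and 4.6 in HEL, against 2.91, 3.93 and 3.39 in SET2. The size of the INSR difference therefore depended on the probe sets, from -4.21 to 1.34, with a median of -2.67.

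**Figure D2:**
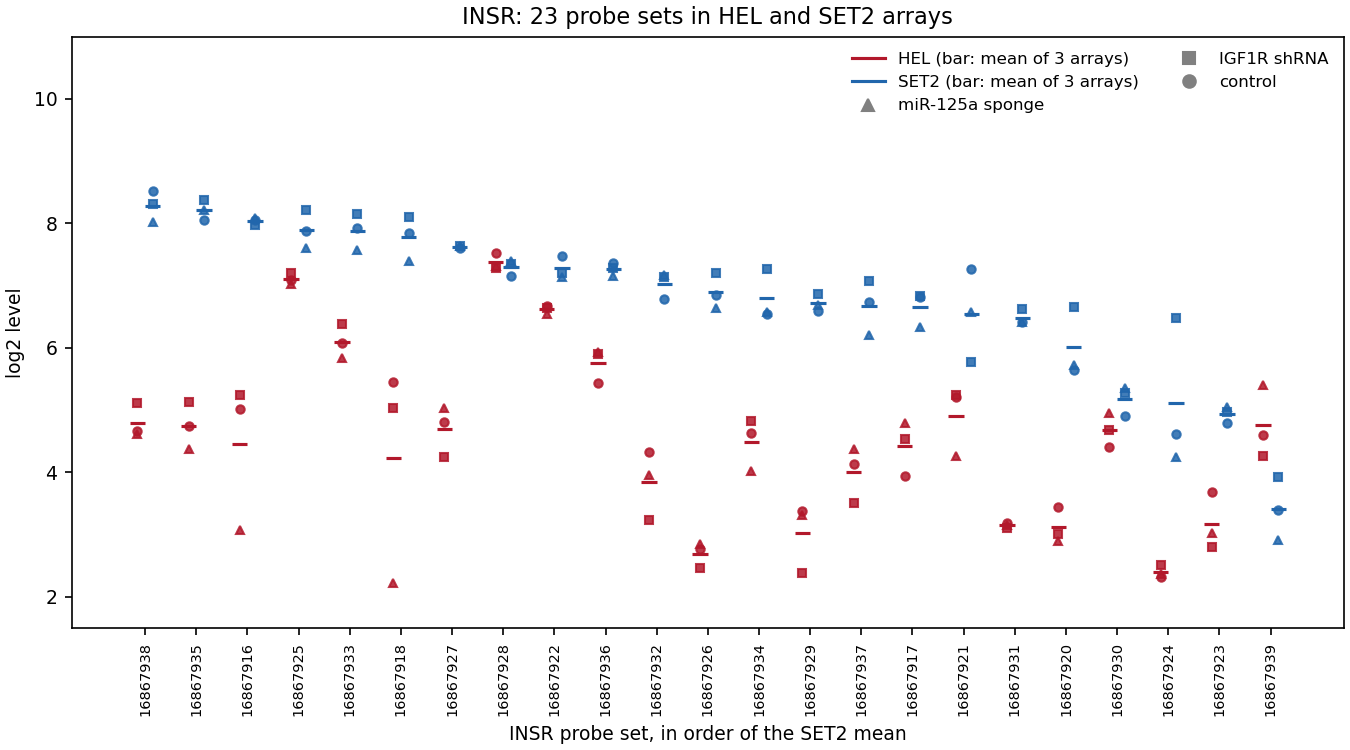
Log2 level (y axis) of each of the 23 INSR probe sets (x axis, in order of the SET2 mean) in the 3 HEL arrays and the 3 SET2 arrays, with bars at the mean of 3 arrays. In 20 of the 23 every HEL array lies below every SET2 array, and in 16867939 the HEL arrays lie above.

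IGF1R encodes the type 1 IGF receptor. Its gene level was 8.81 with the sponge, 8.56 with the IGF1R shRNA and 8.63 in the control in HEL. In SET2 it was 8.37 with the sponge, 8.33 with the IGF1R shRNA and 8.32 in the control. The lines differed by 0.33 on the log2 scale (SE 0.12, 95% confidence interval 0.047 to 0.61, unadjusted p = 0.0284 and adjusted p = 0.0940 by limma), with HEL above SET2 under 3 of 3 constructs. Its HEL mean was 8.67 and its SET2 mean 8.34 (SD 0.13 and 0.029, n = 3 each). Every HEL array lay above every SET2 array, as for 19.2% of all genes. Among its 22 probe sets, 15 had every HEL array above every SET2 array, against 13.8% of all probe sets. The brightest of them, 16805498, stood at 11.95, 12.08 and 11.95 in HEL with the sponge, the IGF1R shRNA and the control, against 11.69, 11.53 and 11.70 in SET2. The probe sets at or above the table's median level, 17 of the 22, had a median log2 difference of 0.35. The fit of all probe sets called 0 of the 22, with 4 at an unadjusted p under 0.05, against 21.4% of all probe sets. Of the 3 that were lower in HEL on average, 16805525 stood lowest, at 8.0, 8.20 and 7.43 in HEL, against 8.73, 8.59 and 8.66 in SET2, a log2 difference of -0.78. At the other end 16805532 had a log2 difference of 2.14.

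IGF2R encodes the receptor that clears IGF2. Its gene level was 7.03, 7.03 and 7.09 in HEL with the sponge, the IGF1R shRNA and the control. In SET2 the same constructs gave 7.73, 7.72 and 7.82. Within a line the constructs differed by little (SD 0.037 in HEL and 0.054 in SET2, n = 3 each), and the lines did not overlap. The log2 difference was -0.70 (SE 0.11, 95% confidence interval -0.98 to -0.43, adjusted p = 0.00531 by limma). Of 45 probe sets, 28 had every HEL array below every SET2 array, against 14.2% of all probe sets. Their log2 differences ran from -2.65 to 1.17 with a median of -0.64, and 0 of the 45 passed singly, against 4.37% of all probe sets. At an unadjusted p under 0.05 there were 23, against 21.4% of all. The brightest, 17014380, stood at 9.82, 9.96 and 10.11 in HEL, against 10.15, 10.43 and 10.12 in SET2, so that the lines nearly met. With it alone standing for the gene, the log2 difference was -0.27 and did not pass (adjusted p = 0.393).

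**Figure D3:**
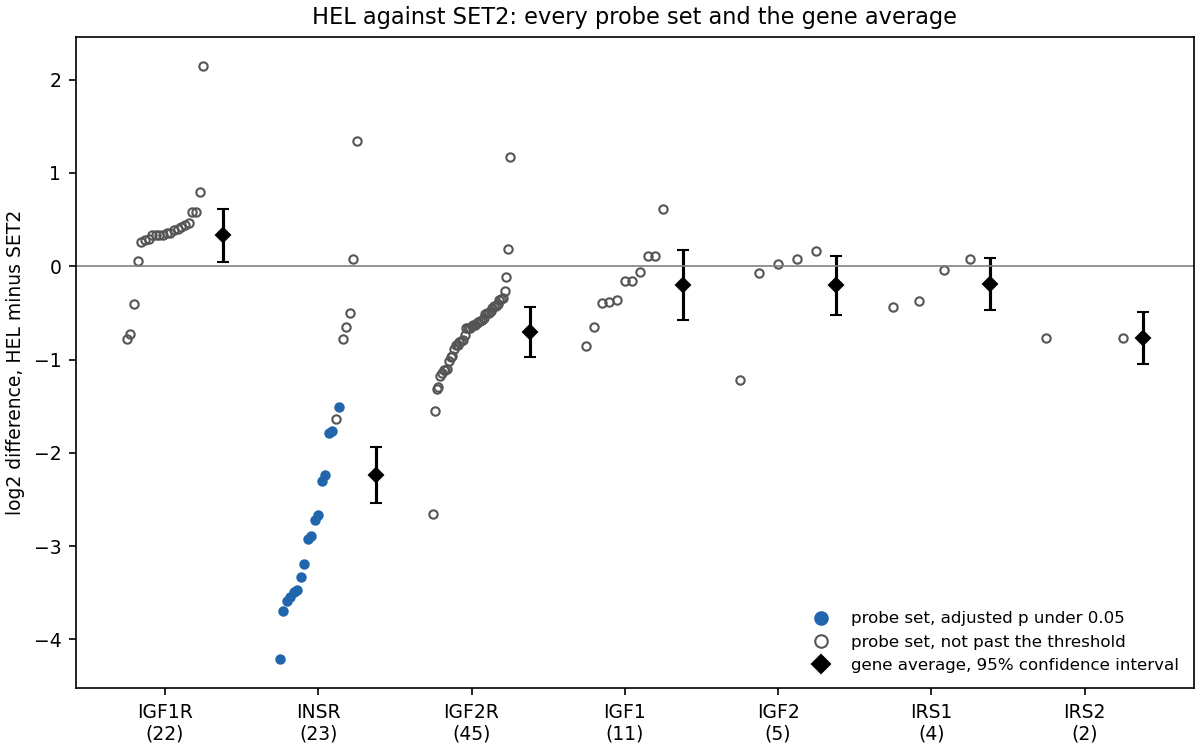
Log2 difference, HEL minus SET2 (y axis), of every probe set of the 7 genes, in order of size within each gene, with filled points past the threshold in the fit of all probe sets; diamonds give the gene average with its 95% confidence interval. The 17 filled points are all INSR probe sets, and the gene averages of INSR, IGF2R and IRS2 lie below 0 with their intervals.

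Of the substrates, IRS2 differed between the lines. Its gene level was 6.48, 6.44 and 6.52 in HEL with the sponge, the IGF1R shRNA and the control. In SET2 it was 7.20 with the sponge, 7.29 with the IGF1R shRNA and 7.27 in the control. The lines did not overlap, and the log2 difference was -0.77 (SE 0.12, 95% confidence interval -1.05 to -0.49, adjusted p = 0.00393 by limma). The gene rests on 2 probe sets, which gave the same difference of -0.77 each. In the fit of all probe sets 0 of the 2 passed, against 4.37% of all. Both had an unadjusted p under 0.05, as did 21.4% of all. IRS1 stood at 4.03, 3.94 and 4.04 in HEL, against 4.29, 4.17 and 4.13 in SET2. These values did not overlap, but the log2 difference of -0.19 (SE 0.12, 95% confidence interval -0.47 to 0.086) did not pass (adjusted p = 0.309). With IRS1, 4 of the 7 genes had every HEL array below every SET2 array, against 20.0% of all genes. Of the 4 IRS1 probe sets, 0 reached the table's median level of 5.66.

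The ligand genes did not pass between the lines. IGF1 stood at 4.28, 4.08 and 3.96 in HEL with the sponge, the IGF1R shRNA and the control, against 4.11, 4.59 and 4.21 in SET2. The groups overlapped, and the log2 difference was -0.20 (95% confidence interval -0.57 to 0.18, adjusted p = 0.444). Its brightest probe set, 16769259, stood at 7.93, 7.34 and 7.27 in HEL, against 8.15, 7.94 and 7.60 in SET2, while 9 of the other 10 stayed below the table's median. IGF2 stood at 4.67, 4.73 and 4.43 in HEL, against 4.88, 4.71 and 4.85 in SET2. Its groups overlapped too, with a log2 difference of -0.21 (95% confidence interval -0.52 to 0.11, adjusted p = 0.343), and 0 of its 5 probe sets reached the table's median. With no call of presence, whether either ligand is transcribed in these lines cannot be read from these values.

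Promoters of 6 of the 7 genes were matched in the RefSeq table used here. The 250 bases before the annotated start of the 3 genes that were lower in HEL, and of IGF1R, which was not, are shown for GRCh38.p14, each in the direction of its gene, 5′ to 3′. Capitals mark the GC box GGGCGG, the site bound by SP1, on either strand.

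INSR (chr19:7294415-7294664, minus strand): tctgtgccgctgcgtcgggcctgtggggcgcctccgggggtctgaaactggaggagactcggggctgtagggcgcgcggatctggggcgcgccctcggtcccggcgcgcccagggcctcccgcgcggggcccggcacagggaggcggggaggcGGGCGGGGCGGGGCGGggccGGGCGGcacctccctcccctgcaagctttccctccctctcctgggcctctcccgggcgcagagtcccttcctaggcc

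IRS2 (chr13:109786584-109786833, minus strand): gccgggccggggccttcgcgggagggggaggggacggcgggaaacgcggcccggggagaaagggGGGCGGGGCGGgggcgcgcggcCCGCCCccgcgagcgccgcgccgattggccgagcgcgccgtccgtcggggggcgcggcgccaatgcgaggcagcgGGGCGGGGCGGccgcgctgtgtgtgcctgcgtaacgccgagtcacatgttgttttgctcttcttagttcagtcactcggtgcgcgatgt

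IGF2R (chr6:159968832-159969081, plus strand): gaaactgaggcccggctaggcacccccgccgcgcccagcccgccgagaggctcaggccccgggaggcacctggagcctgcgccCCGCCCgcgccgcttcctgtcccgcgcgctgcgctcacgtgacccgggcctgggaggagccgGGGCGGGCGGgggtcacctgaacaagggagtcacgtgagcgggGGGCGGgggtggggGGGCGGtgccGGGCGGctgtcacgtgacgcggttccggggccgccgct

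IGF1R (chr15:98648289-98648538, plus strand): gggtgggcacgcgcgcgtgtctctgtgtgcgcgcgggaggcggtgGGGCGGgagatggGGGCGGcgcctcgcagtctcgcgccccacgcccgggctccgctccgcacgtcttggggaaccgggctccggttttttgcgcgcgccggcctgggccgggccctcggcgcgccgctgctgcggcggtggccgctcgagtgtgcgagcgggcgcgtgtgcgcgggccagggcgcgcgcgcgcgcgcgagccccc

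These windows hold 4 GC boxes in INSR, 5 in IRS2, 6 in IGF2R and 2 in IGF1R, counting overlapping matches separately. At least 1 GC box stood in 42.6% of all 35116 promoter windows of that length. The share of G and C was 78.4% in INSR, 76.4% in IRS2, 79.2% in IGF2R and 81.2% in IGF1R, against a median of 58.0% over all windows. The E box CACGTG, found in 6.34% of all windows, stood 3 times in that of IGF2R and in none of the other 3. The motifs TGTTTAC of the FOXO factors, AGATAA of the GATA factors, TTCNNNGAA of the STAT factors and TATAAA of TATA boxes were searched on both strands. They were not found in these 4 windows, against 2.98%, 9.17%, 6.57% and 10.7% of all. GC boxes are thus common to the genes that were lower in HEL and to IGF1R, and the letters say nothing of which factors bind there.

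The sponge was set against control to ask whether the receptor system shifts with this construct. Whether miR-125a was held back in these cultures was not tested. Limma called 0 of the 7 genes, where 0.00% of all genes passed, and 0 of the 7 had an unadjusted p under 0.05, where 1.85% of all genes had. INSR had the value farthest from 0, at -0.20 (SE 0.16, 95% confidence interval -0.57 to 0.17, adjusted p = 1), from -0.27 in HEL and -0.14 in SET2. In both lines the sponge array was the lowest of the 3 for INSR, and the interval spans 0. Without the HEL control the average was -0.079, and without the SET2 control it was -0.33. Among the 23 INSR probe sets, 6 were lower in both lines, against 26.9% of all probe sets, and 2 were higher in both, against 22.9%. The HEL values of 16867916 and 16867918 stood at 3.08 and 2.22 with the sponge, against 5.02 and 5.45 in the control. In SET2 the same probe sets stood at 8.09 and 7.39 with the sponge, against 8.05 and 7.85 in the control. IGF1R and IGF2 had higher values with the sponge in both lines, as did 21.1% of all genes, and INSR, IGF2R and IRS2 had lower ones in both, as did 29.7% of all genes. IGF1R averaged 0.12 (SE 0.15). IGF2R stood at -0.078, IRS2 at -0.058 and IRS1 at 0.074, each with an SE of 0.14. IGF1 stood at 0.11 and IGF2 at 0.14, with SEs of 0.19 and 0.16. Of the 112 probe sets 0 passed (0.00% of all), 5 had an unadjusted p under 0.05, against 3.99% of all, and 4 differed at least 2-fold, against 4.48% of all. None of the 7 genes differed at least 2-fold, as 0.0627% of all genes did. For the 7 genes together the 95% confidence intervals ran from -0.57 at the lowest to 0.56 at the highest, so that smaller changes are not excluded by these arrays.

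The same controls served for the arrays labelled IGF1R shRNA, to ask whether the other genes of the system shift with the construct. The IGF1R transcript itself stood at 8.56 (HEL) and 8.33 (SET2) in these arrays, against 8.63 (HEL) and 8.32 (SET2) in the controls. It was not detectably lower, with a log2 difference of -0.032 (SE 0.15, 95% confidence interval -0.38 to 0.31, adjusted p = 0.973), so these arrays are named by their label only. Of its 22 probe sets, 13 averaged higher and 9 lower, and the 17 at or above the table's median level had a median of 0.03. Of the 22, 2 differed at least 2-fold, against 6.65% of all probe sets, and both were lower. They were the dim probe set 16805504 at -1.97 (-2.51 in HEL and -1.43 in SET2) and 16805532 at -1.265 (-0.96 and -1.57). The latter had a mean level of 6.19, above the table's median. The highest value was 0.79 (-0.43 in HEL and 2.01 in SET2), for 16805501. In the fit of all probe sets 0 of the 22 passed, and 1 had an unadjusted p under 0.05, against 6.21% of all. Limma called 0 of the 7 genes, where 0.00% of all genes passed, and 0 of the 7 had an unadjusted p under 0.05, where 7.42% of all genes had. INSR had log2 differences of -0.12 (HEL) and 0.24 (SET2) and averaged 0.058 (SE 0.16, 95% confidence interval -0.31 to 0.43, adjusted p = 0.954). In SET2 the IGF1R shRNA array held the highest INSR level of the 6, at 6.99 against 6.75 in the control, with no second SET2 culture to set the spread. IGF1 had a higher value in both lines, by 0.11 in HEL and 0.38 in SET2, and averaged 0.25 (SE 0.19, 95% confidence interval -0.21 to 0.70, adjusted p = 0.787); 22.5% of all genes were higher in both lines. That value rests on SET2: without its IGF1R shRNA array it was 0.0098, and without the HEL one 0.48. IGF2R had a lower value in both lines, at -0.061 and -0.098, as did 27.0% of all genes. IRS1 and IRS2 each averaged -0.032 (SE 0.14), and IGF2 averaged 0.080 (SE 0.16). Over all 112 probe sets of the 7 genes, 33 were higher in both lines and 27 lower in both, against 23.6% and 25.4% of all probe sets. The fit called 0, with 6 at an unadjusted p under 0.05, against 6.21% of all, and 9 differed at least 2-fold, against 6.65% of all. None of the 7 genes did, against 0.349% of all genes.

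Set directly against each other, the sponge and the IGF1R shRNA arrays also gave 0 calls among the 7 genes, where 0.00% of all genes passed. Their unadjusted p-values were all above the threshold too, where 6.85% of all genes were under it. The log2 level of INSR was 4.41 (HEL) and 6.61 (SET2) with the sponge, against 4.55 (HEL) and 6.99 (SET2) with the IGF1R shRNA. Its average log2 difference was -0.26 (SE 0.16, 95% confidence interval -0.63 to 0.11, adjusted p = 0.771), lower with the sponge in 2 of 2 lines, as were 26.2% of all genes. Without the HEL array labelled IGF1R shRNA it was -0.41, and without the SET2 one -0.11. IGF1R and IRS1 had higher values with the sponge in both lines, at 0.15 and 0.11 on average, as did 25.1% of all genes. Of the 112 probe sets, 27 were higher with the sponge in both lines and 33 lower, against 24.9% and 25.7% of all. None passed, 5 had an unadjusted p under 0.05, against 5.94% of all, and 11 differed at least 2-fold, against 6.28% of all, while 0 of the 7 genes did, against 0.327% of all genes. This comparison and the other 2 share arrays, so their values are not independent of each other.

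**Figure D4:**
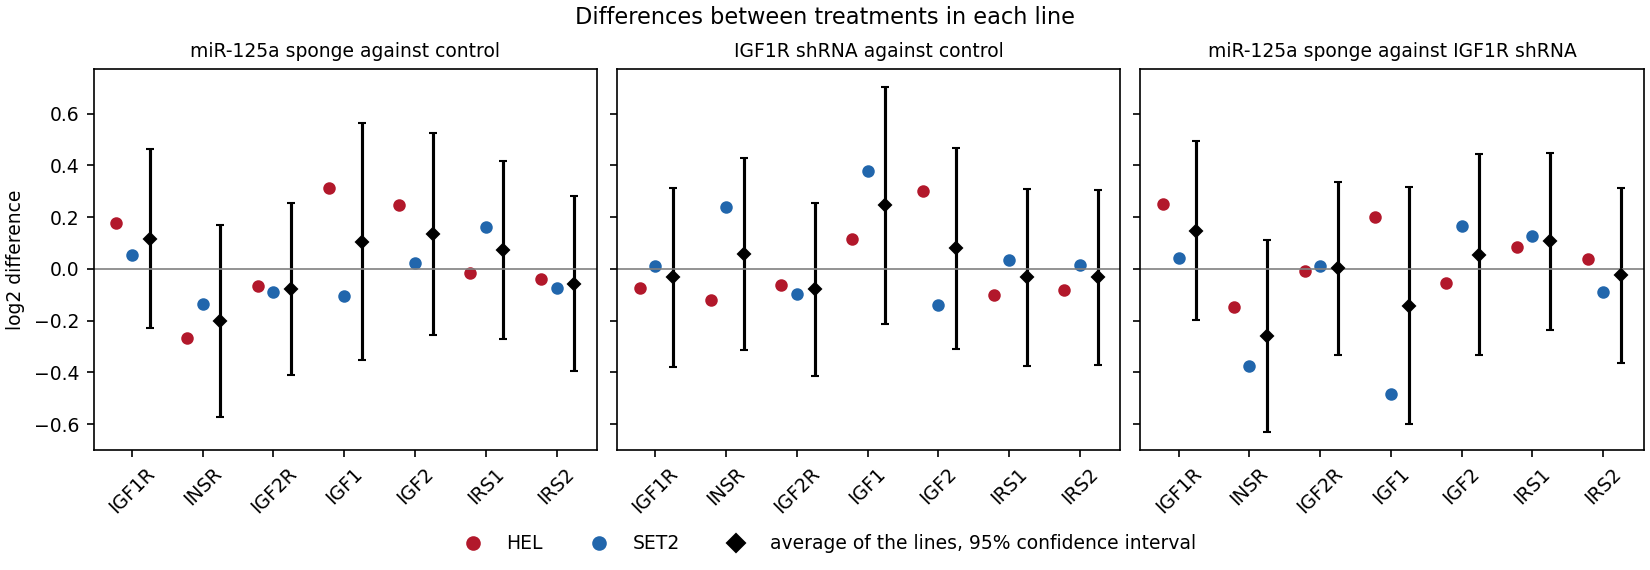
Log2 differences (y axis) of the 7 genes between treatments, with a point for HEL, a point for SET2 and a diamond for the average of the lines with its 95% confidence interval, in a panel for each comparison. Every interval spans 0.

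The other genes of the pathway were read from 5 lists of 76 genes in all, and 68 of them had probe sets with that symbol alone. Between treatments 0 of the 68 passed in any of the 3 comparisons. The lists' genes had a median log2 difference of -0.013 for the sponge against control and -0.067 for the IGF1R shRNA against control, beside medians of -0.018 and -0.011 over all genes. Between the lines, 13 of the 68 were higher in HEL and 16 lower, with a median of -0.076 beside 0.0076 over all genes. Over all genes 11.6% were higher and 13.0% lower.

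Most IGF binding proteins hold IGF1 and IGF2 in the extracellular fluid. Of the 8 genes listed under them, IGFALS included, 2 were higher in HEL and 2 lower. IGFBP5 was higher by 3.65 (SE 0.17, adjusted p = 3.31e-05) and IGFBP2 by 1.02 (SE 0.13, adjusted p = 0.00205). IGFBP7 stood at -2.46 (SE 0.13, adjusted p = 5.34e-05) and IGFBP4 at -2.18 (SE 0.31, adjusted p = 0.00294). In the list of related receptors, ligands and substrates 2 of 9 were higher in HEL and 2 lower. IGF2BP1, which encodes a protein that binds IGF2 mRNA, was higher by 2.95, and its relative IGF2BP2 by 0.42. IDE, the enzyme that degrades insulin, was lower in HEL (-1.43), and so was PAPPA (-1.06), a protease that cleaves IGF binding proteins. INS, INSRR and IRS4, the insulin gene, the insulin receptor-related receptor gene and a further substrate gene, had log2 differences of -0.057, -0.084 and -0.04 and did not pass.

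Adaptors and brakes of the receptors went in both directions, with 6 of 19 higher in HEL and 4 lower. CBL, a ubiquitin ligase for activated receptors, was higher by 2.64, and SOCS3, an inhibitor of receptor signalling, by 1.58. DOK2, a docking protein that dampens signalling, was higher by 1.33, and TRIB3, an inhibitor of AKT, by 1.06. PTPN1, the phosphatase that switches off the insulin receptor, was lower in HEL (-1.65, SE 0.13, adjusted p = 0.000316), followed by the adaptor gene GAB1 at -1.03, CBLB at -0.93 and the ubiquitin ligase gene NEDD4 at -0.58. In the PI3K, AKT and mTOR arm 3 of 25 were higher in HEL and 5 lower. EIF4EBP1, the translation inhibitor that mTOR switches off, was higher by 1.56, INPPL1, a lipid phosphatase, by 0.70 and MTOR by 0.56. FOXO1, a transcription factor that insulin holds out of the nucleus and that is known to raise INSR and IRS2 transcription, was lower in HEL (-2.15, SE 0.14, adjusted p = 0.000126). Its mean was 5.13 in HEL against 7.27 in SET2 (SD 0.30 and 0.038, n = 3 each). Its part in the INSR and IRS2 differences was not tested. PIK3R2, a regulatory subunit of PI3 kinase, stood at -0.97, PIK3CD, a catalytic one, at -0.65, and TSC2, which restrains mTOR, at -0.56. In the RAS and ERK arm 0 of 7 were higher in HEL and 3 lower, the RAS activators SOS1 at -1.34 and SOS2 at -0.87 and the kinase gene ARAF at -0.61.

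**Figure D5:**
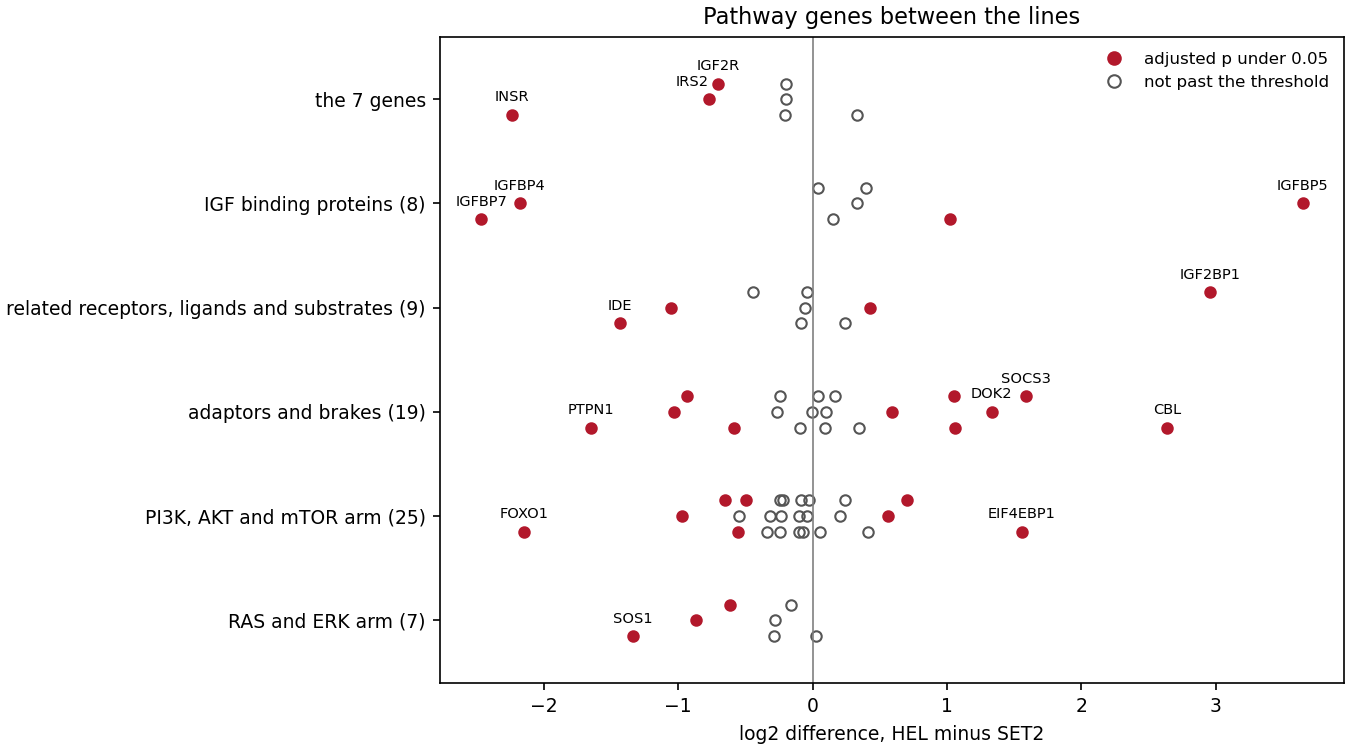
Log2 difference, HEL minus SET2 (x axis), of the 7 genes and of the measured genes of 5 pathway lists (rows, with the number of genes), with filled points past the threshold. INSR at -2.24 lies near FOXO1 at -2.15 and IGFBP4 at -2.18, and IGFBP5 at 3.65 lies farthest to the right.

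Between treatments, the genes of each list with the values farthest from 0 and of 1 sign in both lines did not pass. With the sponge, the higher values were 0.28 for IGFBP7, 0.18 for IGF2BP1, 0.26 for GAB1, 0.28 for FOXO3 and 0.23 for SOS2. The lower ones were -0.20 for IGFBP6, -0.04 for FURIN, a protease that matures receptor precursors, -0.23 for DOK1, -0.27 for PIK3CD and -0.20 for MAPK3, an ERK kinase. With the IGF1R shRNA, the higher values were 0.49 for IGFBP7, 0.65 for PAPPA, 0.72 for CBLB, 0.35 for PIK3R2 and 0.31 for SOS2. The lower ones were -0.45 for IGFALS, which holds IGF in serum complexes, -1.16 for INS, from 1 probe set, -0.59 for PTPN1, -0.37 for PIK3CD and -0.35 for ARAF. INS had a mean level of only 3.41, where the median gene stood at 5.55. The smallest adjusted p among the 68 was 0.560 with the IGF1R shRNA, for CBLB, and 1 with the sponge. Between the sponge and the IGF1R shRNA it was 0.725, and the values ran from -0.75 for PAPPA to 0.57 for TRIB3.

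Genes whose levels followed those of the 3 called members most closely over the 6 arrays were sought among genes with at least 5 probe sets and a level at or above the gene median. For INSR they were SUPV3L1 and ROGDI, each with Pearson's r of 0.999, for IGF2R HLA-DPA1 (0.999) and SEPT7P2 (0.999), and for IRS2 PAFAH1B1 (0.999) and BCAM (0.999). For IGF1R they were YAF2 and SAMSN1, each with r of 0.996. The points fall into 2 cell lines, and r is given as a description only. With INSR, 807 of 9459 genes reached an r of 0.95. With IGF2R 864 genes reached it, with IRS2 866, with IGF1R 173, with IGF1 3, with IGF2 35 and with IRS1 24. Those nearest were NCOA1 (0.990) and C5orf56 (0.981) for IGF1, PIK3CB and SPOPL (both 0.989) for IGF2, and KLF13 (0.994) and AP1AR (0.979) for IRS1.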

How the data were processed

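Transcript levels came from 6 arrays, 1 for each of 2 cell lines and 3 constructs. The authors deposited log2 values, 1 per probe set and array, and the submitters' processing notes name Affymetrix Expression Console. That the scale is log2 follows from the range of the values, 1.61 to 13.99. Summarisation, background correction, normalisation and genome build are not given in the sources used here, and without the scanner files, not used here, presence calls could not be made. With 6 arrays, their number limits the precision.

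Of 352859 probe sets, 259224 named 1 symbol alone, and their mean per symbol gave 22320 genes. A further 13116 named several symbols and 80519 none. Genes, and separately all probe sets, were fitted in limma 3.58.1 (R 4.3.3, data.table version 1.17.8) with treatment and cell line as terms, eBayes, and Benjamini-Hochberg adjustment over all features of the fit, with a threshold of 0.05. The gene fit left 2 residual degrees of freedom, with 4.78 prior ones added. Replicate numbers stand for cell lines (1 is HEL, 2 is SET2), and this pairs the arrays. Deviations from the treatment means correlated across genes at 0.774 (sponge and IGF1R shRNA), 0.884 (sponge and control) and 0.746 (IGF1R shRNA and control). The fit was tested on simulated data.

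The 7 genes and the pathway lists were chosen with earlier results of these data known. Named pathway genes were, per list and comparison, up to 4 rises and 4 falls past the threshold, otherwise values of the same sign in both lines. Promoters and microRNAs were read from RefSeq tables of GRCh38.p14 with pandas 2.3.3 under Python 3.11.15, and plots were drawn with matplotlib 3.10.9. Alternatives changed the averaging of probe sets, the filter on dim genes, the normalisation between arrays, the prior of eBayes, the arrays fitted and the block, and left out each array.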

Additional observations from a re-analysis of the deposited data

Results flagged for a closer look

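Several of the 7 genes stood on opposite sides of 0 in HEL and SET2, which 48.1% to 49.9% of all genes did in the same comparisons. With 1 array per line and treatment, whether the lines respond differently was not tested. Each value here is the log2 difference in HEL minus that in SET2. For the sponge against control it was 0.42 for IGF1 (0.31 in HEL and -0.10 in SET2) and -0.18 for IRS1 (-0.015 and 0.16). For the IGF1R shRNA against control it was -0.36 for INSR (-0.12 and 0.24), 0.44 for IGF2 (0.30 and -0.14), -0.13 for IRS1 (-0.10 and 0.035), -0.095 for IRS2 (-0.08 and 0.015) and -0.086 for IGF1R (-0.075 and 0.011). For the sponge against the IGF1R shRNA it was 0.68 for IGF1 (0.20 and -0.48), -0.22 for IGF2 (-0.054 and 0.16), 0.13 for IRS2 (0.04 and -0.09) and -0.017 for IGF2R (-0.0067 and 0.010).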

How the results depend on the processing

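The calls of INSR and IRS2 between the lines held under all 14 alternatives, with log2 differences from -2.35 to -0.78 for INSR and -0.80 to -0.73 for IRS2. These are not 14 separate checks. With the treatment as a term, leaving out the HEL or the SET2 array of a construct gives the same fit between the lines. IGF2R held under 13 of 14 and was lost with the brightest probe set (-0.27). IGF1R stayed positive, from 0.27 to 0.40, and passed under none. Genes called between the lines numbered 5475, and 2613 with the brightest probe set; leaving out single arrays gave 2871 to 6330, the lowest without either sponge array and 3214 without either control. Probe sets called between the lines numbered 15426, 29030 with the trend in eBayes and 27181 with no replicate block, which left 0 calls between treatments; leaving out single arrays gave 0 to 1314, with 0 without either IGF1R shRNA array, 1037 without either control and 1314 without either sponge array. Between treatments 0 of the 7 genes passed under any alternative. Over all genes 729 passed for the IGF1R shRNA against control, and 670 for the sponge against the IGF1R shRNA, without IGF1R shRNA replicate 2, when a lone IGF1R shRNA array is taken to vary as the other groups do; without any other single array both counts were 0. The cause was not tested for any of these.

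Values between treatments that lie near 0 changed sign, and the cause was not tested. For the IGF1R shRNA against control, the median of the probe sets gave 0.15 (IGF1R), 0.06 (IGF2R), -0.38 (IGF2) and 0.02 (IRS1), the brightest probe set 0.08 (IGF2R), quantile normalization 0.0042 (IRS2), and probe sets at or above the table median, an alternative chosen after seeing the data, -0.00091 (INSR). Leaving out single arrays gave -0.11 to 0.042 for IGF1R, -0.089 to 0.20 for INSR, -0.085 to 0.25 for IGF2, -0.11 to 0.046 for IRS1 and -0.089 to 0.024 for IRS2. For the sponge against control, the median of the probe sets gave -0.23 (IGF1) and -0.20 (IGF2) and the brightest -0.005 (IGF1R), while leaving out single arrays gave -0.17 to 0.38 for IGF1, -0.0305 to 0.30 for IGF2 and -0.0044 to 0.15 for IRS1. For the sponge against the IGF1R shRNA, the median of the probe sets gave -0.085 (IGF1R) and -0.18 (IGF2R), the brightest -0.21 (IGF2R), 0.40 (IGF1), -0.39 (IGF2) and 0.005 (IRS2), quantile normalization -0.0082 and subtracted array medians -0.023 (both IGF2R), and probe sets at or above the table median -0.11 (IGF2R) and 0.10 (IGF1). Leaving out single arrays gave -0.012 to 0.015 for IGF2R, -0.42 to 0.13 for IGF1, -0.11 to 0.22 for IGF2 and -0.081 to 0.031 for IRS2. Between the lines, the median of the probe sets gave 0.063 for IGF1, and the brightest 0.027 for IGF2 and 0.077 for IRS1. Other values between treatments kept their sign but moved by over 1.5 times when single arrays were left out. For the sponge against control they ran from 0.033 to 0.20 for IGF1R, -0.33 to -0.079 for INSR and -0.099 to -0.016 for IRS2, for the IGF1R shRNA against control from 0.0098 to 0.48 for IGF1, and for the sponge against the IGF1R shRNA from 0.065 to 0.23 for IGF1R, -0.41 to -0.11 for INSR and 0.051 to 0.16 for IRS1.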

Other observations

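A further 10 probe sets named IGF2 together with INS or INS-IGF2, the readthrough transcript of the neighbouring insulin and IGF2 genes, and entered no gene average. Their mean levels ran from 3.20 to 5.82. Averaged over the 10, the arrays of HEL stood at 4.65 with the sponge, 4.76 with the IGF1R shRNA and 4.92 in the control. Those of SET2 stood at 5.18 with the sponge, 4.94 with the IGF1R shRNA and 4.95 in the control. Of the 10, singled out after its values were seen, 16734374 passed between the lines in the fit of all probe sets (log2 difference -1.49, adjusted p = 0.0463 by limma), at 3.85, 4.17 and 4.2 in HEL with the sponge, the IGF1R shRNA and the control, against 5.40, 5.98 and 5.30 in SET2. That call is subject to the same loss as the INSR probe sets when an IGF1R shRNA array is left out, since 0 probe sets then passed. Adding these probe sets to the 5 of IGF2 alone was not done, since their signal cannot be assigned to 1 gene.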
